A study of Mus musculus with 15 samples.

Results

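The mouse genes of 5 enzyme families that modify foreign and endogenous small molecules were followed in RNA from colonic crypts, the epithelial glands of the large intestine. The families were the cytochromes P450 of families Cyp1 to Cyp4 (Cyp), the carboxylesterases (Ces), the glutathione transferases (Gst), the sulfotransferases (Sult) and the UDP-glucuronosyltransferases (Ugt). Members were chosen by gene symbol and by a mean of at least 1 CPM (a gene's count per 1000000 counts of its library) over all 15 samples. A gene high in 1 group can reach that mean through this group: Cyp2c69 and Cyp2f2 did so through FL-shAlpl, and the other 2 groups together averaged 0.391 and 0.916 CPM. Of 155 symbols with these beginnings, 19 were marked as pseudogenes and 68 lay under 1 CPM, 2 of them with no count in any sample. The remaining 68 genes, of 32939 in the table, were the members: 25 Cyp, 20 Gst, 10 Ces, 8 Ugt and 5 Sult. All 68 passed the filter on low counts and were tested. The threshold fell between Cyp2w1 at a mean of 0.987 CPM, the nearest gene outside, and Cyp2r1 at 1.44 CPM, the nearest inside.

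The study comprised 3 groups of 5 wild-type mouse samples. NL-shGFP was fed a normal diet, had a normal liver and received an adeno-associated virus (AAV) with a short hairpin against GFP, a control target that mice do not carry. FL-shGFP received the same control vector on a CDAA diet (choline-deficient and amino-acid-defined, a diet used to produce fatty liver) and had a fatty liver. FL-shAlpl had the same CDAA diet and fatty liver but received an AAV with a hairpin against Alpl, the gene of tissue-nonspecific alkaline phosphatase. All 3 groups thus carried an AAV hairpin, and diet and liver state changed together, so their parts cannot be told apart. There was no normal-liver group with the Alpl hairpin, and the labels state neither the tissue the vector reached nor whether the 5 samples of a group are separate animals. Should some share an animal, the tests cover just the variation from sample to sample, which may be technical.

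These enzymes work in 2 steps. Phase I enzymes such as P450s and carboxylesterases oxidise or hydrolyse a compound, and phase II enzymes attach glutathione, sulfate or glucuronic acid so that it can be exported. Many of the genes are read out through the nuclear receptors PXR (Nr1i2) and CAR (Nr1i3), the aryl hydrocarbon receptor (Ahr) or the stress-sensing factor NRF2 (Nfe2l2). In the colon the enzymes meet compounds from food and from gut bacteria, and their levels change along the crypt as cells mature toward the surface.

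Library totals ran from 33272941 to 58590251 counts. Mitochondrially encoded genes took 28.0% to 37.5% of the counts of NL-shGFP samples, 13.7% to 21.5% in FL-shGFP and 14.8% to 24.3% in FL-shAlpl. NL-shGFP replicates 3 and 4 were the most alike pair of libraries and were kept as separate samples. NL-shGFP replicates 1 and 2 stood apart from the rest of their group in the summed level of the 68 members, at 4226 and 4439 CPM against 2578 to 2900 in replicates 3 to 5. The same 2 libraries also stood apart in the summed surface colonocyte markers (10460 and 10960 CPM against 5129 to 5771) and enteroendocrine markers (687 and 720 CPM against 322 to 365). Their summed small intestine markers were at 264 and 302 CPM against 148.7 to 153.5. In FL-shAlpl, replicate 1 stood apart in the small intestine markers, at 489 CPM against 123.6 to 210.8 in replicates 2 to 5. Alpl was at 0 to 0.0484 CPM in NL-shGFP samples, 0.271 to 0.667 in FL-shGFP and 0 to 0.113 in FL-shAlpl, which tells nothing of its level in other tissues. Of 12 surface colonocyte markers 10 were higher and of 10 stem cell markers 9 were lower in FL-shGFP than in NL-shGFP. The summed colonocyte markers stood at 5129 to 10960 CPM in NL-shGFP samples, 11720 to 21160 in FL-shGFP and 6360 to 10630 in FL-shAlpl, and the summed stem cell markers at 253 to 390, 85.5 to 157 and 145 to 298 CPM. Of 8 T and NK cell markers 7 were higher in FL-shGFP than in NL-shGFP, with sums of 11.7 to 49.3 CPM in NL-shGFP samples, 80.7 to 191 in FL-shGFP and 8.72 to 21.6 in FL-shAlpl. No marker of these lists lacked counts altogether. The colonocyte, stem cell and T and NK cell markers moved between the same groups as the enzymes below. The part of all these markers in the enzyme results was not tested. In crypt RNA fewer cells of a type and less RNA per cell cannot be told apart.

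FL-shGFP was compared with NL-shGFP to see how the colonic enzymes stand under diet with fatty liver. Of the 68 members 28 were higher, 15 were lower and 25 did not pass (edgeR's quasi-likelihood test, Benjamini-Hochberg adjusted p below 0.05 over all genes tested). Among all 17404 genes tested, 25.1% were higher, 21.6% lower and 46.7% called in either direction, beside 63.2% of the members. Members average at least 1 CPM, whereas the genes tested include scarcer ones, so shares here and below are not matched for abundance. In a fit limited to the 13811 genes with 1 CPM in 5 samples, 3824 were higher and 3415 lower. That fit gave 2898 higher and 2888 lower in FL-shAlpl against FL-shGFP, and 1428 and 1285 in FL-shAlpl against NL-shGFP. The FL-shGFP samples lay entirely above the NL-shGFP samples for 26 members and entirely below for 9, where the shares among all genes were 19.7% and 9.23%. The median log2 fold change was 0.14 for the members and -0.002 for all genes tested.

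By family the counts were as follows, and differences between families were not tested. Of 25 Cyp members 16 were higher (64%) and 1 lower (4%), and of 20 Gst members 3 were higher (15%) and 7 lower (35%). The 10 Ces members split into 5 higher and 4 lower, the 5 Sult members into 2 higher and 1 lower, and the 8 Ugt members into 2 higher and 2 lower. The share called in either direction was 50% in Gst and in Ugt, near the 46.7% of all genes tested.

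FL-shAlpl was compared with FL-shGFP to ask what the Alpl hairpin changes within the fatty liver condition. Here 17 members were higher, 23 lower and 28 did not pass, so that 58.8% were called beside 18.0% of all genes higher, 17.9% lower and 36.0% in either direction. Of the Cyp members 15 were lower and 3 higher, and of the Gst members 11 were higher and 1 lower. Ces had 4 lower and 1 higher, Sult 1 lower and 1 higher, and Ugt 2 lower and 1 higher. Among the 17 higher are Cyp2c69 and Cyp2f2, which reached the 1 CPM threshold through FL-shAlpl, and without them 15 were higher. The samples lay entirely above for 5 members and entirely below for 8, beside 5.32% and 8.52% of all genes. These calls rested on fewer clear gaps than those of the first comparison: with each of the 15 samples left out in turn, 11 of the 17 higher and 10 of the 23 lower calls held in every fit. The number lower went from 23 to 13 without FL-shGFP replicate 4 or FL-shAlpl replicate 4, to 14 without FL-shAlpl replicate 1 and to 15 without FL-shGFP replicate 1, and the number higher from 17 to 11 without FL-shAlpl replicate 3. With no filter on low counts the number lower was 10.

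FL-shAlpl was also set beside NL-shGFP, which differs from it in diet, liver state and hairpin together. In that comparison 22 members were higher, 7 lower and 39 did not pass, so that 42.6% were called beside 9.31% of all genes higher, 8.13% lower and 17.4% in either direction. Higher members included 11 Cyp, 6 Gst, 3 Ces and 2 Sult genes, and lower members 3 Cyp, 2 Ces and 2 Ugt genes. Without Cyp2c69 and Cyp2f2, 20 were higher. The samples lay entirely above for 17 members and entirely below for 3, beside 11.2% and 4.16% of all genes. The 7 lower calls fell to 4 without NL-shGFP replicate 1, NL-shGFP replicate 2, FL-shAlpl replicate 2 or FL-shAlpl replicate 5, and to 0 without NL-shGFP replicates 1 and 2 together, where 5 were lower at an unadjusted p below 0.05. That pair was left out after seeing the data. With NL-shGFP replicates 3 and 4 summed as 1 library, and likewise 1 and 2, 13 were higher and 2 lower. Library totals alone, without TMM factors, moved the median of all genes from 0.052 to 0.189 and the members' calls from 22 to 27 higher and from 7 to 4 lower.

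**Figure D1:**
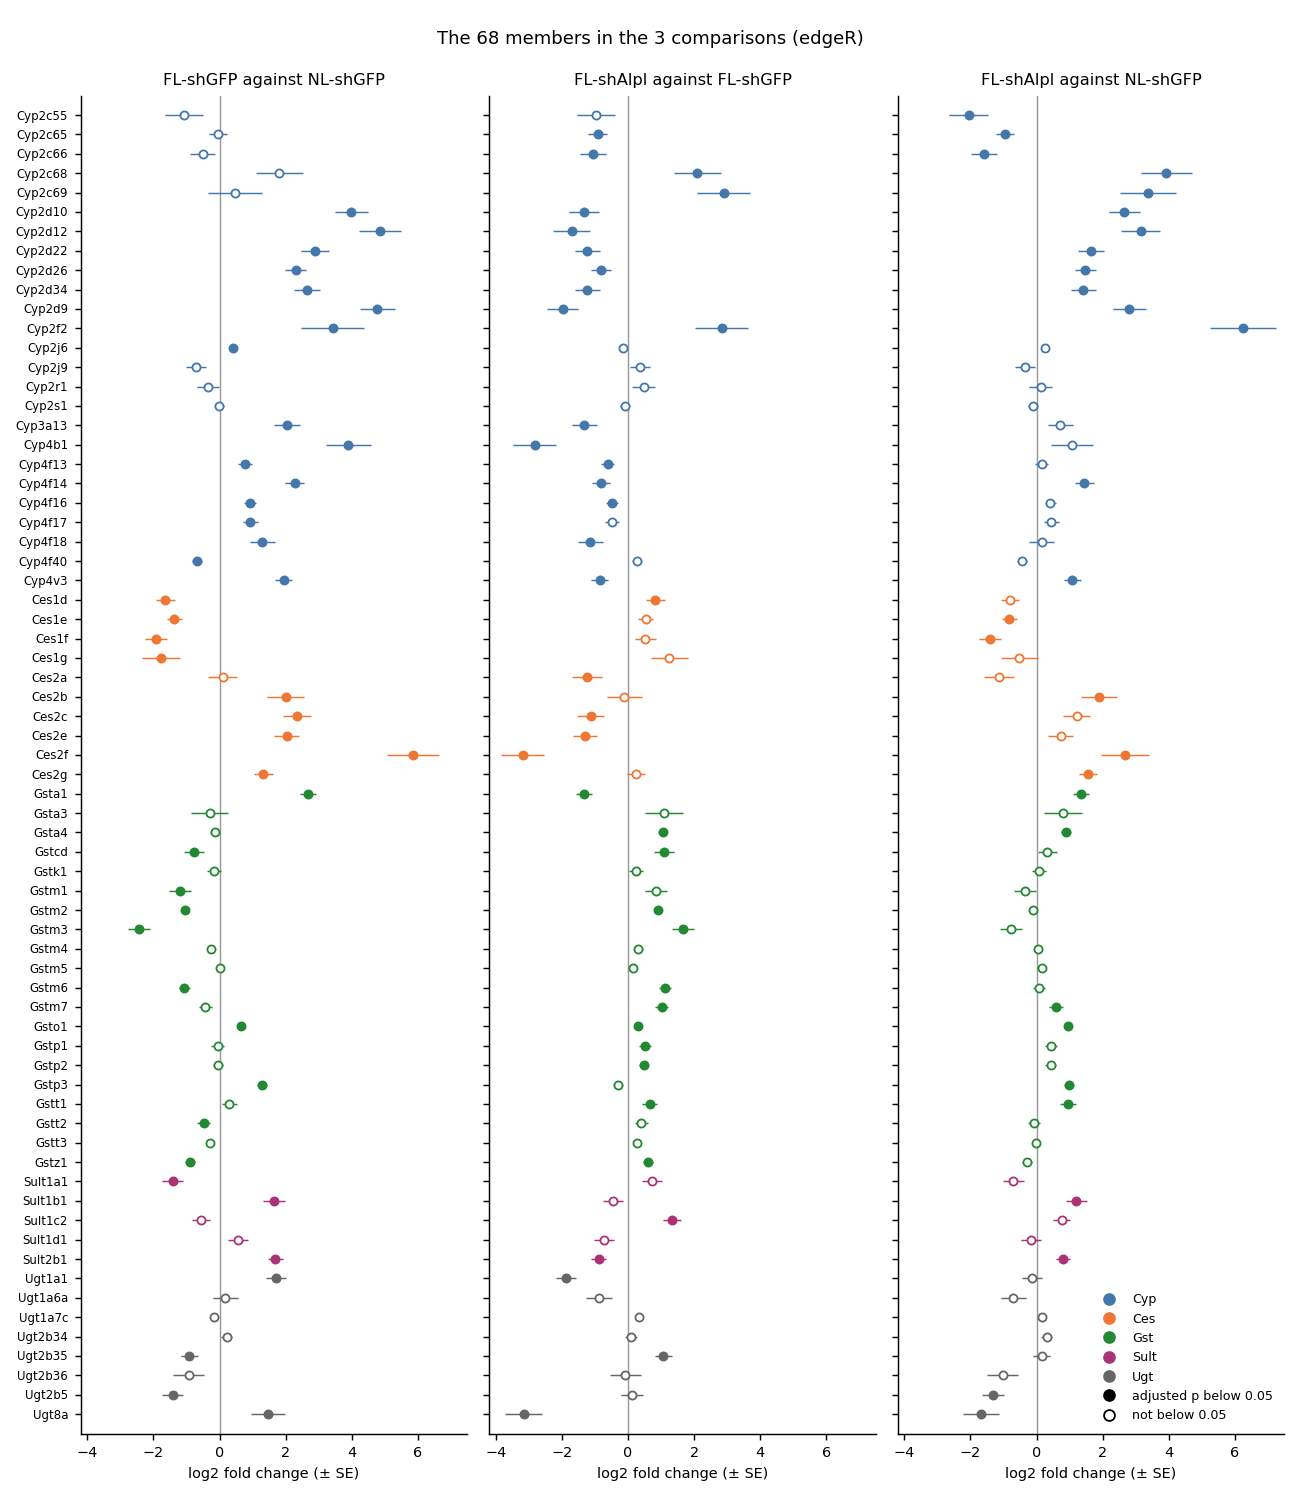
Log2 fold change with its standard error (horizontal axis) of each of the 68 members (rows, coloured by family) in the 3 comparisons (panels), with filled points for adjusted p below 0.05. Most Cyp points lie to the right in the first panel (16 higher, 1 lower) and to the left in the second (15 lower, 3 higher), and of the Gst points 7 are lower and 3 higher in the first, then 11 higher and 1 lower in the second.

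The 3 comparisons share groups, so the calls are set side by side without a test of their overlap. The most frequent pattern with any call was that of 11 members. They were higher in FL-shGFP than in NL-shGFP, lower in FL-shAlpl than in FL-shGFP, and still higher in FL-shAlpl relative to NL-shGFP. They were the 6 Cyp2d genes, Cyp4f14, Cyp4v3, Ces2f, Gsta1 and Sult2b1. With each sample left out in turn, all 3 calls held in every fit for Cyp2d9, Cyp4v3 and Gsta1 alone. Another 8 members had the first 2 calls and did not pass in the third: Ces2c, Ces2e, Cyp3a13, Cyp4b1, Cyp4f13, Cyp4f16, Cyp4f18 and Ugt1a1. The mirror pattern, lower and then higher, held for 7 members that did not pass in the third comparison: Ces1d, Gstcd, Gstm2, Gstm3, Gstm6, Gstz1 and Ugt2b35. In 5 members only the comparisons with FL-shAlpl passed, both upward (Cyp2c68, Cyp2c69, Gsta4, Gstm7 and Gstt1), and 13 members passed in none. Cyp2c69 is a member through its FL-shAlpl samples, so its place among the 5 is a description. For Cyp2c68, Gstm7 and Gstt1, 1 of the 2 calls was lost on leaving out single samples, as given below.

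**Figure D2:**
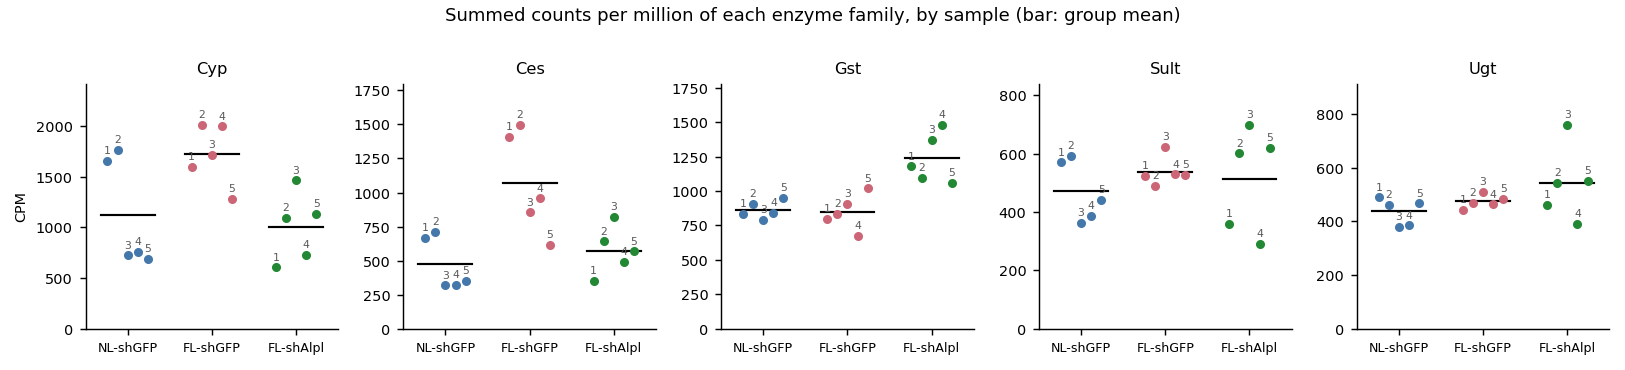
Summed CPM of the members of each family (vertical axis) in every sample (points, numbered by replicate) of the 3 groups, with a bar at the group mean. All 5 FL-shAlpl samples lie above all FL-shGFP samples in the Gst panel, while NL-shGFP replicates 1 and 2 stand above the other NL-shGFP samples in the Cyp, Ces and Sult panels.

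Summed over a family, the levels give the weight of its most abundant genes. The Cyp sum was 1121 ± 544 CPM in NL-shGFP samples, 1723 ± 304 in FL-shGFP and 1006 ± 343 in FL-shAlpl (SD, n = 5). In NL-shGFP it was 1661 and 1769 CPM in replicates 1 and 2 but 692 to 758 in replicates 3 to 5, so the groups overlapped. The Ces sum was 474 ± 198, 1067 ± 375 and 574 ± 176 CPM. The Gst sum was 864 ± 63.1 CPM in NL-shGFP samples and 846 ± 127 in FL-shGFP, and 1238 ± 182 in FL-shAlpl, where the lowest sample (1061 CPM) lay above the highest of FL-shGFP (1020 CPM). Sult sums were 471 ± 105, 538 ± 50.2 and 514 ± 178 CPM and Ugt sums 437 ± 50.7, 474 ± 25 and 542 ± 139 CPM, with overlapping groups. These sums are descriptions and move with the share of mitochondrial counts. With those genes left out of the totals, the Cyp sum became 1670 in NL-shGFP and 2071 in FL-shGFP. The order of these groups turned round for Sult (702 in NL-shGFP and 647 in FL-shGFP) and for Ugt (652 and 570). The Gst sums, close to each other before, became 1293 in NL-shGFP and 1016 in FL-shGFP.

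Per length, the most abundant members over all samples were Cyp2c55 at 175 FPKM (fragments per kilobase of gene, scaled to the library total), Gsto1 at 161, Ces2e at 119, Gstp1 at 117 and Sult1a1 at 114 FPKM. In NL-shGFP the order began with Cyp2c55 (299.5 ± 213 FPKM), Sult1a1 (165 ± 31.0) and Gsto1 (102 ± 7.0). In FL-shGFP Ces2e led (213 ± 90.0 FPKM), before Gsto1 (164 ± 13.4) and Cyp2c55 (146 ± 40.7), and in FL-shAlpl Gsto1 led (216 ± 21.6 FPKM). Several neighbours in these orders lay within each other's spread. Some P450s best known from liver were nearly absent: over all samples Cyp3a11 averaged 0.112 CPM, Cyp2e1 0.0398 and Cyp2b10 0.0250. Cyp1a1, the classic target of the aryl hydrocarbon receptor, had 4 counts in the 15 libraries together. Some other genes under the 1 CPM threshold differed by group. FL-shGFP had the highest mean for Cyp3a25 (2.05 CPM, beside 0.222 for NL-shGFP and 0.101 for FL-shAlpl). The same held for Ces3b (2.05, beside 0.0782 and 0.0994) and Cyp4a10 (0.967, beside 0 and 0.00753). Cyp2w1 was lowest there (0.282 CPM, beside 1.34 for each other group). These means are descriptions. Of 8 hepatocyte markers, Alb, Apoa2, Serpina1a, Serpina3k, Fgb and Hpx each lay at or below 0.751 CPM in every sample. The other two were present: Ttr ran from 2.19 to 12.7 CPM over all samples, and Cps1, a urea cycle enzyme also made in intestine, from 14.5 to 32.6 CPM in NL-shGFP samples, 0.427 to 1.97 in FL-shGFP and 6.37 to 69.8 in FL-shAlpl. The summed list stood at 18.3 to 39.2, 3.16 to 16.0 and 11.8 to 80.2 CPM in the 3 groups, and its part in the enzyme results was not tested. The 80.2 CPM was FL-shAlpl replicate 1, beside 11.8 to 20.5 in replicates 2 to 5.

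The Cyp2d genes, neighbours on chromosome 15 whose human relative CYP2D6 oxidises many drugs, moved together in all 3 comparisons. All 6 members rose in FL-shGFP over NL-shGFP, all with separate samples, and their median log2 fold change was 3.44. Values are given for replicates 1 to 5 in order. Cyp2d9 stood at 2.54, 2.9, 4.57, 5.87 and 1.56 CPM in NL-shGFP samples, 123, 139, 52.9, 141 and 34.3 in FL-shGFP samples and 13.4, 37.5, 18.8, 37.3 and 27.5 in FL-shAlpl samples. Cyp2d10 stood at 5.03, 5.56, 6.79, 7.93 and 3.7 CPM in NL-shGFP samples, 98.7, 149, 58.6, 125 and 36.7 in FL-shGFP samples and 12, 63.1, 31.4, 37.2 and 54.3 in FL-shAlpl samples, and Cyp2d12 at 1.94, 2.47, 1.15, 1.14 and 0.721 CPM in NL-shGFP samples, 63.4, 61.1, 14.2, 67.1 and 10.2 in FL-shGFP samples and 4.93, 20.6, 13.9, 18.8 and 14.1 in FL-shAlpl samples. In each of the 3 genes NL-shGFP was low throughout, FL-shGFP was high with replicates 3 and 5 lowest, and FL-shAlpl lay between, overlapping FL-shGFP but not NL-shGFP. Against NL-shGFP, FL-shGFP was 27.5-fold higher for Cyp2d9 (log2 fold change 4.78, SE 0.54, adjusted p = 2.49e-05), 15.8-fold for Cyp2d10 (log2 fold change 3.99, SE 0.51, adjusted p = 5.35e-05) and 29.1-fold for Cyp2d12 (log2 fold change 4.86, SE 0.64, adjusted p = 6.61e-05).

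The most abundant gene of the block was Cyp2d34, at 58.6, 66.2, 33.7, 36.6 and 17.7 CPM in NL-shGFP samples, 308, 372, 208, 336 and 139.6 in FL-shGFP samples and 63, 171, 137, 114 and 135 in FL-shAlpl samples. It was 6.29-fold higher in FL-shGFP (log2 fold change 2.65, SE 0.40, adjusted p = 0.000169). Cyp2d22 and Cyp2d26 rose 7.38-fold and 4.91-fold. In contrast to the other 4 genes, their highest FL-shGFP sample was replicate 3 (40.2 and 97 CPM). Against FL-shGFP, FL-shAlpl was lower for all 6 genes, by 1.76-fold for Cyp2d26 (log2 fold change -0.81, SE 0.30, adjusted p = 0.0466) to 3.94-fold for Cyp2d9 (log2 fold change -1.98, SE 0.47, adjusted p = 0.00588), and no gene had separate samples there. Against NL-shGFP it was higher for all 6, from 2.67-fold for Cyp2d34 (log2 fold change 1.42, SE 0.39, adjusted p = 0.0204) to 8.88-fold for Cyp2d12 (log2 fold change 3.15, SE 0.60, adjusted p = 0.00301), and 4 had separate samples. The rise in FL-shGFP passed in every alternative fit of all 6 genes. In the comparison with FL-shAlpl, leaving out FL-shAlpl replicate 1 ended the call for the 5 genes other than Cyp2d9, and leaving out FL-shGFP replicate 2 or 4 ended it for Cyp2d10, Cyp2d12, Cyp2d26 and Cyp2d34, with adjusted p up to 0.117. Single samples outside these 3 that ended a call were FL-shGFP replicate 1 and FL-shAlpl replicate 3 for Cyp2d10 and Cyp2d12, FL-shGFP replicate 3 for Cyp2d22 and Cyp2d26, FL-shAlpl replicate 4 for Cyp2d10, Cyp2d22 and Cyp2d26, and NL-shGFP replicates 1 and 5 and FL-shAlpl replicate 2 for Cyp2d26. Cyp2d34 in FL-shAlpl against NL-shGFP also missed the threshold without NL-shGFP replicate 3 or FL-shAlpl replicate 2 (adjusted p up to 0.0692). FL-shAlpl replicate 1 is the library that stood apart in the small intestine markers, and the bearing of this on its Cyp2d values was not tested.

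**Figure D3:**
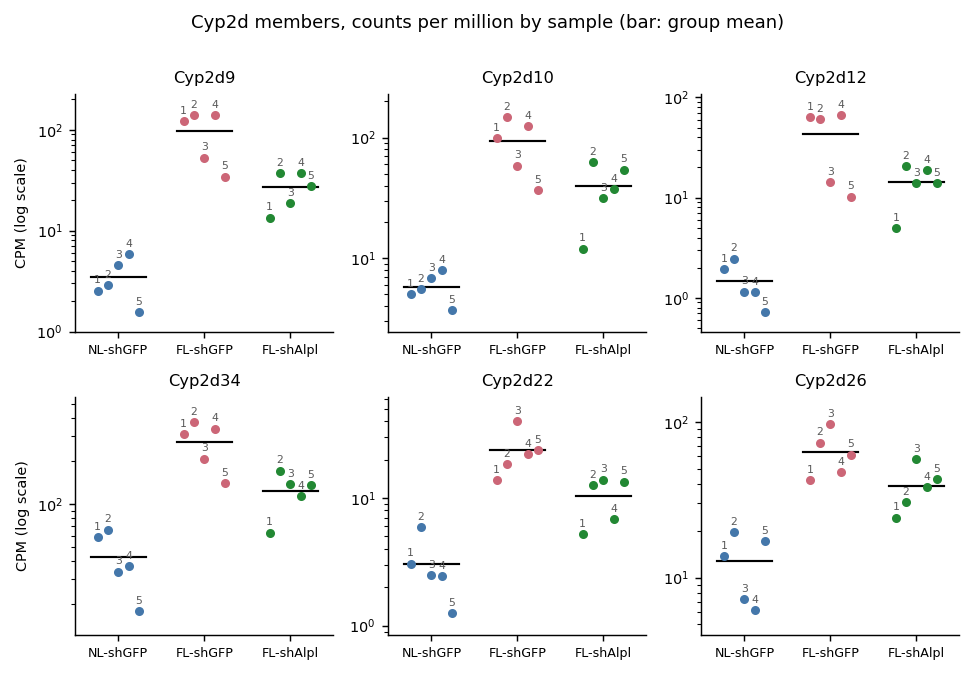
CPM on a log scale (vertical axis) of the 6 Cyp2d members in every sample (points, numbered by replicate) of the 3 groups, with a bar at the group mean. The FL-shGFP samples lie above all NL-shGFP samples in each panel, and the FL-shAlpl mean lies between the other means.

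The 250 bases before the start of 2 Cyp2d genes that moved together are shown because they are alike (RefSeq, GRCm38.p6, written 5′ to 3′ on the gene's strand). The window of Cyp2d9 is chr15:82452127-82452376 on the plus strand and that of Cyp2d10 is chr15:82407195-82407444 on the minus strand. In an alignment with gaps, identical bases made up 83.6% of the window, where windows of members from different families gave a median of 49.2% (36.8% to 59.2% over 1289 pairs). Capitals mark TTTATA, which is a TATA box (TATAAA) read on the opposite strand, 28 bases before the start in Cyp2d9 and 31 in Cyp2d10.
Cyp2d9: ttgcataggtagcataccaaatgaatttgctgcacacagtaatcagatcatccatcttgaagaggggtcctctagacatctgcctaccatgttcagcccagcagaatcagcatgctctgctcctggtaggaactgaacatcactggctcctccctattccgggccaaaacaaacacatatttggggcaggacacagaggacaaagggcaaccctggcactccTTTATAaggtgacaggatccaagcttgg
Cyp2d10: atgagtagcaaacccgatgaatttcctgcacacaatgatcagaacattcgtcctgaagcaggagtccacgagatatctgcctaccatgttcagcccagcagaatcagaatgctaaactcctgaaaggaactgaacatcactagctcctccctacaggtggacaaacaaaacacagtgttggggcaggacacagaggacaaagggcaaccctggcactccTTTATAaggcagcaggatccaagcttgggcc
TATAAA on either strand was present in the windows of 9 of 59 members with a listed promoter (15.3%) and in 12.4% of all 32851 windows. Members were counted by gene and all windows singly, so these shares differ in unit. Windows of 9 members, Cyp2d12 among them, were not analysed here. In gene models of GENCODE M21, 35.8% of the 50-base stretches of Cyp2d10 and 21.8% of those of Cyp2d9 also occurred in another gene, mainly Cyp2d11 and Cyp2d12, so how reads were shared between these copies is uncertain.

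The Cyp2c genes, P450s on chromosome 19 that oxidise arachidonic acid and drugs, did not move as a block. None of the 5 members passed in FL-shGFP against NL-shGFP. In FL-shAlpl all 5 differed from NL-shGFP, 2 upward and 3 downward. Cyp2c55, the most abundant member per length in NL-shGFP but not in the other groups, stood at 1028, 1095, 310.4, 309 and 245 CPM in NL-shGFP samples, 176, 356, 351, 339.5 and 237 in FL-shGFP samples and 50.3, 145, 364, 38.2 and 199 in FL-shAlpl samples. NL-shGFP held 2 high and 3 lower samples, and in FL-shAlpl replicates 1 and 4 were the lowest of all 15 samples. Cyp2c65 stood at 182, 181, 104, 105 and 99.2 CPM in NL-shGFP samples, 104, 88.8, 199, 132 and 156 in FL-shGFP samples and 84.4, 62.8, 131, 39.3 and 65.7 in FL-shAlpl samples, again with replicates 1 and 2 highest in NL-shGFP. Cyp2c66 was the scarcest of the 3, at 6.2, 5.56, 2.8, 2.52 and 4.81 CPM in NL-shGFP samples, 2.95, 1.99, 5.22, 1.76 and 4.13 in FL-shGFP samples and 3.5, 0.819, 1.85, 0.923 and 1.05 in FL-shAlpl samples.

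These 3 genes were lower in FL-shAlpl than in NL-shGFP: Cyp2c55 by 4.13-fold (log2 fold change -2.05, SE 0.59, adjusted p = 0.027), Cyp2c65 by 1.95-fold (log2 fold change -0.96, SE 0.28, adjusted p = 0.0291) and Cyp2c66 by 2.98-fold (log2 fold change -1.58, SE 0.39, adjusted p = 0.0126). Their groups overlapped. Without NL-shGFP replicates 1 and 2 together the log2 fold changes were -1.01 for Cyp2c55, -0.59 for Cyp2c65 and -1.19 for Cyp2c66, and none passed (adjusted p of 0.282, 0.228 and 0.106). Those 2 samples were the highest of NL-shGFP for each gene and were left out after seeing the data. Leaving them out shrinks the fold by itself, so these values are descriptions. One sample was enough to end the call for Cyp2c55 (NL-shGFP replicate 1 or 2, or FL-shAlpl replicate 2, adjusted p up to 0.0712) and for Cyp2c65 (those 3, or FL-shAlpl replicate 4 or 5, up to 0.0761). Cyp2c65 and Cyp2c66 were also lower in FL-shAlpl than in FL-shGFP, by 1.89-fold (log2 fold change -0.92, SE 0.28, adjusted p = 0.021) and 2.09-fold (log2 fold change -1.06, SE 0.39, adjusted p = 0.044). The first of these calls was lost without FL-shGFP replicate 3 (adjusted p = 0.0531), and the second on leaving out any 1 sample other than NL-shGFP replicates 1 and 4, FL-shGFP replicates 2 and 4 and FL-shAlpl replicate 1 (adjusted p up to 0.115).

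Cyp2c68 and Cyp2c69 went the other way. Cyp2c68 stood at 1.4, 2.03, 2.71, 2.62 and 6.4 CPM in NL-shGFP samples, 9.64, 22.9, 2.59, 13.1 and 3.84 in FL-shGFP samples and 10.3, 57.9, 62.9, 10.1 and 97.3 in FL-shAlpl samples. All FL-shAlpl samples lay above all NL-shGFP samples, and replicates 2, 3 and 5 were far above replicates 1 and 4. Cyp2c69 stood at 0.343, 0.58, 0.354, 0.17 and 0.18 CPM in NL-shGFP samples, 0.0623, 1.51, 0.21, 0.373 and 0.125 in FL-shGFP samples and 0.489, 4.51, 7.57, 1.44 and 4.59 in FL-shAlpl samples, so that FL-shAlpl overlapped NL-shGFP through replicate 1 alone. FL-shAlpl was 15.1-fold higher than NL-shGFP for Cyp2c68 (log2 fold change 3.92, SE 0.77, adjusted p = 0.00363) and 10.3-fold for Cyp2c69 (log2 fold change 3.37, SE 0.84, adjusted p = 0.0135), and 4.29-fold (log2 fold change 2.1, SE 0.71, adjusted p = 0.0313) and 7.42-fold (log2 fold change 2.89, SE 0.81, adjusted p = 0.0135) higher than FL-shGFP. Cyp2c69 is a member through its FL-shAlpl samples, so its higher level there is a description. For Cyp2c69 the counts behind these folds were 6 to 24 in NL-shGFP, 3 to 78 in FL-shGFP and 26 to 351 in FL-shAlpl. The Cyp2c68 call against FL-shGFP was lost without any 1 of FL-shGFP replicates 1, 3, 4 and 5 or FL-shAlpl replicates 2, 3 and 5 (adjusted p up to 0.0833). The Cyp2c69 call against NL-shGFP was lost without NL-shGFP replicates 1 and 2 together (adjusted p = 0.0505).

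**Figure D4:**
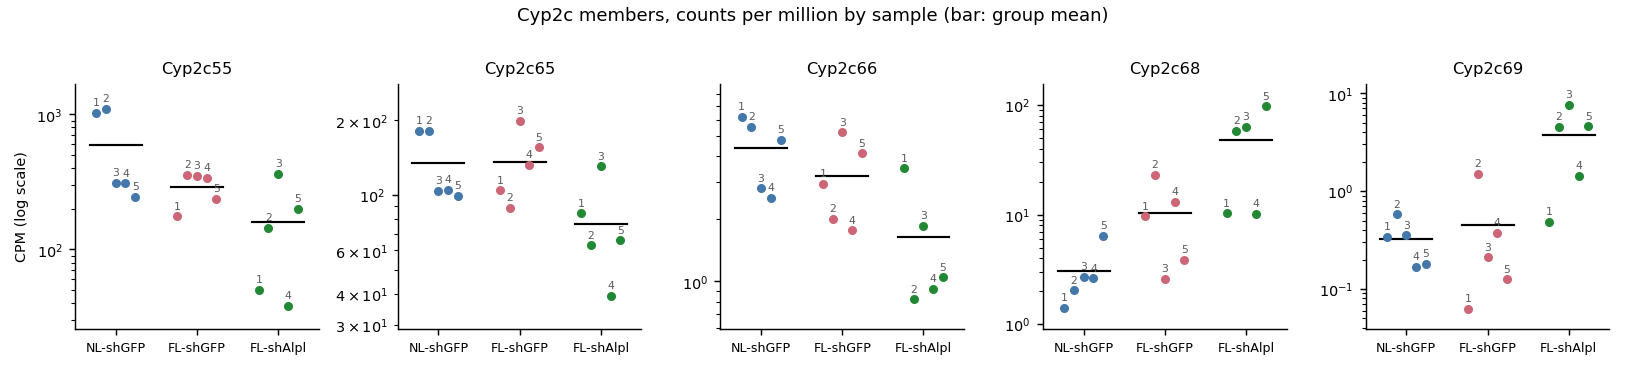
CPM on a log scale (vertical axis) of the 5 Cyp2c members in every sample (points, numbered by replicate) of the 3 groups, with a bar at the group mean. Cyp2c55, Cyp2c65 and Cyp2c66 have their lowest group mean in FL-shAlpl and Cyp2c68 and Cyp2c69 their highest, and FL-shAlpl replicates 1 and 4 lie below replicates 2, 3 and 5 for Cyp2c55, Cyp2c68 and Cyp2c69.

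The windows before the Cyp2c starts are shown because the genes belong to the same subfamily and chromosome and moved in opposite directions (RefSeq, GRCm38.p6, written 5′ to 3′ on the gene's strand). They are chr19:39006769-39007018 for Cyp2c55, chr19:39060756-39061005 for Cyp2c65 and chr19:39113648-39113897 for Cyp2c66 on the plus strand, and chr19:39741102-39741351 for Cyp2c68 and chr19:39886770-39887019 for Cyp2c69 on the minus strand. Capitals mark TATAAA (the letters of a TATA box) and CAAAGTCCA (a site of the hepatocyte nuclear factor HNF4). TATAAA lay 29 bases before the start of Cyp2c55 but 162 before Cyp2c65 and 150 before Cyp2c66. Stretches were marked by their letters alone, and whether they act in a core promoter was not tested. In Cyp2c68 capitals also mark CACGC, which is GCGTG, the core of the aryl hydrocarbon receptor's element, read on the opposite strand.
Cyp2c55: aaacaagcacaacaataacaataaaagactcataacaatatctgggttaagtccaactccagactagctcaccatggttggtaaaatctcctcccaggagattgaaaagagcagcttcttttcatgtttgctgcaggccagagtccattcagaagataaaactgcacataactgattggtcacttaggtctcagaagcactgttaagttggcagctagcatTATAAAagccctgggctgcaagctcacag
Cyp2c65: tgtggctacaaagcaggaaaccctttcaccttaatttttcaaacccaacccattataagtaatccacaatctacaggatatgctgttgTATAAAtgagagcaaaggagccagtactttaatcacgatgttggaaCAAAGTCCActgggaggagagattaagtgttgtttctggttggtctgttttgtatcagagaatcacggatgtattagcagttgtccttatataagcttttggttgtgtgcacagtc
Cyp2c66: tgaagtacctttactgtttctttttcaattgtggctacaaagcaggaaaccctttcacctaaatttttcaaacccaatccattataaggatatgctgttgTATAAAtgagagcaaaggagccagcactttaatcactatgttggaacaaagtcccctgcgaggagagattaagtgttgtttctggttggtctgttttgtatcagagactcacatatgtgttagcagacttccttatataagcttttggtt
Cyp2c68: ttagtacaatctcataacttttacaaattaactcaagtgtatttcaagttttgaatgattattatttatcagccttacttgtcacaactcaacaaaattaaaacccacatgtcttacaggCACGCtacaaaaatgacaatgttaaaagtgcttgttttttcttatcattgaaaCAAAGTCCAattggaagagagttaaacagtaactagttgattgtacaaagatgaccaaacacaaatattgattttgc
Cyp2c69: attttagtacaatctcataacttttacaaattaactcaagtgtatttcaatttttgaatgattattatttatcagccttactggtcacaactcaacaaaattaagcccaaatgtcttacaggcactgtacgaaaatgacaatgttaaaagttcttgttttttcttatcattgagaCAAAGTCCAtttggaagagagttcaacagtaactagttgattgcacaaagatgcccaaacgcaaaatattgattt
The windows held 2 like pairs: aligned with gaps, Cyp2c65 and Cyp2c66 shared 83.2% of the window's bases and Cyp2c68 and Cyp2c69 shared 92.8%. Across the pairs the share was 50% to 58.4%, and Cyp2c55 shared 48% to 56.8% with the rest, all within the range of 36.8% to 59.2% between members of different families. CAAAGTCCA on either strand was found 116 bases before the start of Cyp2c65, 77 before Cyp2c68 and 75 before Cyp2c69. Those were the only members with it (3 of 59, 5.08%), where 0.384% of all windows held it. These 3 include genes that moved in both directions, and the like windows of Cyp2c68 and Cyp2c69 are not separate cases. For every motif, members were counted by gene, with a match in any listed window, and all windows singly. The shares therefore differ in unit. GCGTG was found in 14 of 59 members' windows (23.7%) and in 28.2% of all. The NRF2 element TGACNNNGC was in 5 (8.47%, against 10.2% of all) and the nuclear receptor half-site AGGTCA in 8 (13.6%, against 14.0%). In their transcripts Cyp2c68 and Cyp2c69 shared 43.3% and 54.3% of 50-base stretches with another gene, mainly Cyp2c40, and Cyp2c65 shared 20.6%, mainly with Cyp2c66, so their separate counts are uncertain.

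Among the other P450s, the intestinal Cyp3a13, related to the main drug-oxidising P450 of humans, stood at 70.4, 72.2, 23.3, 27.6 and 25.2 CPM in NL-shGFP samples, 175, 195, 172, 256 and 125 in FL-shGFP samples and 50.6, 97.7, 106, 44 and 93.3 in FL-shAlpl samples. FL-shGFP lay above both other groups without overlap, 4.15-fold above NL-shGFP (log2 fold change 2.05, SE 0.39, adjusted p = 0.00082), and FL-shAlpl was 2.52-fold below FL-shGFP (log2 fold change -1.33, SE 0.38, adjusted p = 0.0147). Cyp4b1, which oxidises fatty acids and activates some lung toxins, went from 4.83, 5.2, 0.472, 0.728 and 1.44 CPM in NL-shGFP samples to 11.7, 24.5, 88.9, 23.9 and 51.6 in FL-shGFP samples and back to 3.39, 5.12, 10.4, 2.81 and 7.34 in FL-shAlpl samples. FL-shGFP again stood alone, 14.9-fold above NL-shGFP (log2 fold change 3.9, SE 0.69, adjusted p = 0.000512), and FL-shAlpl was 7.1-fold below it (log2 fold change -2.83, SE 0.65, adjusted p = 0.00475). Unlike the Cyp2d genes with high values in replicates 1, 2 and 4, its highest FL-shGFP samples were replicates 3 and 5. FL-shAlpl did not pass against NL-shGFP for Cyp3a13 (log2 fold change 0.72, SE 0.38, adjusted p = 0.204) or Cyp4b1 (1.07, SE 0.64, adjusted p = 0.271). Without NL-shGFP replicates 1 and 2 the log2 fold changes were 1.5 for Cyp3a13 and 2.62 for Cyp4b1. Those 2 samples were the highest of NL-shGFP and were left out after seeing the data. Leaving them out raises the fold by itself, so these values are descriptions.

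Cyp2f2, known for the activation of naphthalene in lung, was one of 2 members that rose at each step. It had 0, 0, 0.147, 0.291 and 0.331 CPM in NL-shGFP samples, 1.27, 3.99, 0.589, 1.17 and 1.38 in FL-shGFP samples and 2.24, 17.3, 15.1, 1.98 and 25.8 in FL-shAlpl samples. The counts behind these were 0 to 12, 28 to 206 and 88 to 1087 per library. NL-shGFP was below both other groups in every sample, and FL-shAlpl replicates 2, 3 and 5 stood far above replicates 1 and 4, the split also seen in Cyp2c68. The fitted fold was 10.7 from NL-shGFP to FL-shGFP (log2 fold change 3.42, SE 0.95, adjusted p = 0.00941) and 7.12 from FL-shGFP to FL-shAlpl (log2 fold change 2.83, SE 0.79, adjusted p = 0.0136). The first was lost without NL-shGFP replicates 1 and 2 (adjusted p = 0.0531), both of which were at 0. Cyp2f2 too is a member through FL-shAlpl, so its level there is a description.

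The Cyp4f genes, which hydroxylate leukotrienes and fatty acids at the end of the chain, had 6 members, 5 higher and 1 lower in FL-shGFP. Cyp4f14 stood at 41.3, 44.7, 30.9, 31.4 and 28 CPM in NL-shGFP samples, 193, 223, 129.7, 218 and 103 in FL-shGFP samples and 63.6, 113, 164, 94.6 and 95.3 in FL-shAlpl samples, and was 4.85-fold higher in FL-shGFP than in NL-shGFP (log2 fold change 2.28, SE 0.29, adjusted p = 4.72e-05). Cyp4f13, Cyp4f16, Cyp4f17 and Cyp4f18 rose 1.71-, 1.87-, 1.9- and 2.44-fold, each with FL-shGFP entirely above NL-shGFP. Cyp4f40 fell 1.61-fold (log2 fold change -0.69, SE 0.15, adjusted p = 0.00229), and its values were 67.2, 68.3, 57.3, 64.5 and 78.7 CPM in NL-shGFP samples and 40.7, 42.4, 48, 27.3 and 59.3 in FL-shGFP. Cyp4f18 is also known from myeloid cells, whose 8 markers summed to 115 to 308 CPM in NL-shGFP samples, 276 to 1081 in FL-shGFP and 95.7 to 289 in FL-shAlpl, and their part was not tested. Cyp4v3, a fatty acid hydroxylase, rose 3.85-fold (log2 fold change 1.94, SE 0.26, adjusted p = 6.61e-05). In FL-shAlpl against FL-shGFP Cyp4v3 and 4 Cyp4f members were lower (by 1.4- to 2.2-fold). The 4 Cyp4f calls there were each lost without FL-shGFP replicate 4 or FL-shAlpl replicate 4 (adjusted p up to 0.126 over the samples left out). Other single samples that ended one of them were FL-shGFP replicate 1 (Cyp4f14, Cyp4f16 and Cyp4f18), replicate 2 (Cyp4f13, Cyp4f14 and Cyp4f16) and replicate 3 (Cyp4f18), FL-shAlpl replicates 1 (Cyp4f14 and Cyp4f16), 2 (Cyp4f18), 3 (Cyp4f16 and Cyp4f18) and 5 (Cyp4f16), and NL-shGFP replicates 1 to 4 (Cyp4f16).

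Of the remaining P450s Cyp2j6, an epoxygenase of fatty acids, rose 1.32-fold in FL-shGFP (log2 fold change 0.4, SE 0.11, adjusted p = 0.00635). Cyp2j9, the vitamin D 25-hydroxylase Cyp2r1 and Cyp2s1 passed in none of the comparisons. Cyp2s1 stood at 46.4 ± 7.15 CPM in NL-shGFP samples, 47.5 ± 4.86 in FL-shGFP and 47.3 ± 10.6 in FL-shAlpl (SD, n = 5).

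The carboxylesterases, which hydrolyse esters such as prodrugs and triglycerides, are all encoded on chromosome 8 and divided by subfamily. All 4 Ces1 members fell in FL-shGFP against NL-shGFP and 5 of 6 Ces2 members rose. Ces2e stood at 196, 216, 85, 95.3 and 99.2 CPM in NL-shGFP samples, 784, 868, 424, 507 and 294 in FL-shGFP samples and 124, 299, 348, 212 and 264 in FL-shAlpl samples, and Ces2c at 96.9, 88.2, 36.7, 37.6 and 33.6 CPM in NL-shGFP samples, 389, 394, 267, 303 and 155 in FL-shGFP samples and 53, 206, 205, 126 and 149 in FL-shAlpl samples. Every FL-shGFP sample was above every NL-shGFP sample for both, and NL-shGFP replicates 1 and 2 were the highest of their group. Ces2e was 4.1-fold (log2 fold change 2.04, SE 0.38, adjusted p = 0.000761) and Ces2c 5.06-fold higher (log2 fold change 2.34, SE 0.43, adjusted p = 0.00064).

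Ces2f had the largest fold of all members in this comparison. It was at 0.457, 0.29, 0.413, 0.436 and 0.0601 CPM in NL-shGFP samples, 55.1, 23.1, 5.96, 11.3 and 3.63 in FL-shGFP samples and 1.79, 3.31, 1.83, 1.71 and 3.04 in FL-shAlpl samples, and the 3 groups did not overlap. In counts per library this was 2 to 18, 174 to 2654 and 76 to 194. The fitted fold was 58 (log2 fold change 5.86, SE 0.78, adjusted p = 6.87e-05) upward in FL-shGFP and 9.08 (log2 fold change -3.18, SE 0.65, adjusted p = 0.00251) downward in FL-shAlpl. FL-shAlpl remained 6.39-fold above NL-shGFP (log2 fold change 2.68, SE 0.73, adjusted p = 0.0201), a call lost in 6 of 28 alternative fits, among them the one without FL-shAlpl replicate 2 (adjusted p = 0.0547). On the log2(FPKM + 1) scale, which understates changes of low genes, the rise was 1.86.

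Ces2b and Ces2g rose 3.99-fold (log2 fold change 2.0, SE 0.55, adjusted p = 0.00914) and 2.51-fold (log2 fold change 1.33, SE 0.28, adjusted p = 0.00146) in FL-shGFP and, against FL-shGFP, did not pass in FL-shAlpl (log2 fold changes of -0.12 with SE 0.53 and 0.24 with SE 0.27). Ces2g was at 6.06, 6.26, 4.87, 4.34 and 6.13 CPM in NL-shGFP samples, 27, 13.7, 9.43, 11.7 and 8.55 in FL-shGFP samples and 18.9, 16.8, 22.6, 20 and 12 in FL-shAlpl samples, with both fatty liver groups entirely above NL-shGFP. Ces2a did not pass in FL-shGFP (log2 fold change 0.1, SE 0.44, adjusted p = 0.876), where its values spread widely (128, 144, 42.2, 44.3 and 36.5 CPM in NL-shGFP samples and 97, 139.8, 56, 91.5 and 43.1 in FL-shGFP). Against FL-shGFP, FL-shAlpl was lower for Ces2a, Ces2c, Ces2e and Ces2f. The Ces2a and Ces2c calls there (log2 fold change -1.24, SE 0.45, adjusted p = 0.0435, and log2 fold change -1.13, SE 0.41, adjusted p = 0.0438) were both lost on leaving out any 1 of FL-shGFP replicates 1, 2 and 4 and FL-shAlpl replicates 1, 3 and 4, that of Ces2a also without FL-shAlpl replicate 2, and that of Ces2c also without NL-shGFP replicate 4, FL-shGFP replicate 3 or FL-shAlpl replicate 5 (adjusted p up to 0.114), and Ces2e held in every fit.

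Of the Ces1 genes, Ces1f stood at 105, 116, 77.7, 73.8 and 82.5 CPM in NL-shGFP samples, 18.2, 16.9, 42.7, 9.66 and 40.6 in FL-shGFP samples and 45.1, 20, 61, 38.1 and 28.8 in FL-shAlpl samples. NL-shGFP lay above both other groups in every sample. Ces1d, the triacylglycerol hydrolase, was at 54.4, 54.4, 32.5, 27.3 and 45.9 CPM in NL-shGFP samples, 8.45, 14.2, 13.3, 7.74 and 29.2 in FL-shGFP samples and 22, 21.7, 38.4, 26.6 and 25.9 in FL-shAlpl samples. Within FL-shGFP, replicate 4 was the lowest for both genes and replicate 5 was the highest or next to it. In FL-shGFP Ces1f was 3.79-fold (log2 fold change -1.92, SE 0.33, adjusted p = 0.000425), Ces1d 3.11-fold (log2 fold change -1.64, SE 0.29, adjusted p = 0.000468), Ces1e 2.59-fold (log2 fold change -1.37, SE 0.23, adjusted p = 0.000331) and Ces1g 3.44-fold lower (log2 fold change -1.78, SE 0.58, adjusted p = 0.0206). The Ces1g call was lost without NL-shGFP replicate 1 or 2 (adjusted p up to 0.0532), and without both the log2 fold change was -0.99 (adjusted p = 0.207). Those were its 2 highest NL-shGFP samples, so leaving both out shrinks the fold by itself. In FL-shAlpl Ces1d was higher than in FL-shGFP (log2 fold change 0.83, SE 0.28, adjusted p = 0.0318), a call lost without any 1 of FL-shGFP replicates 1 to 4 or FL-shAlpl replicates 3 and 4 (adjusted p up to 0.079). Ces1e and Ces1f were lower in FL-shAlpl than in NL-shGFP (log2 fold change -0.83, SE 0.23, adjusted p = 0.0211, and log2 fold change -1.4, SE 0.33, adjusted p = 0.00912), and both calls were lost without NL-shGFP replicates 1 and 2 together (adjusted p of 0.0627 and 0.0657), that of Ces1e also without FL-shAlpl replicate 5 (0.0547).

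**Figure D5:**
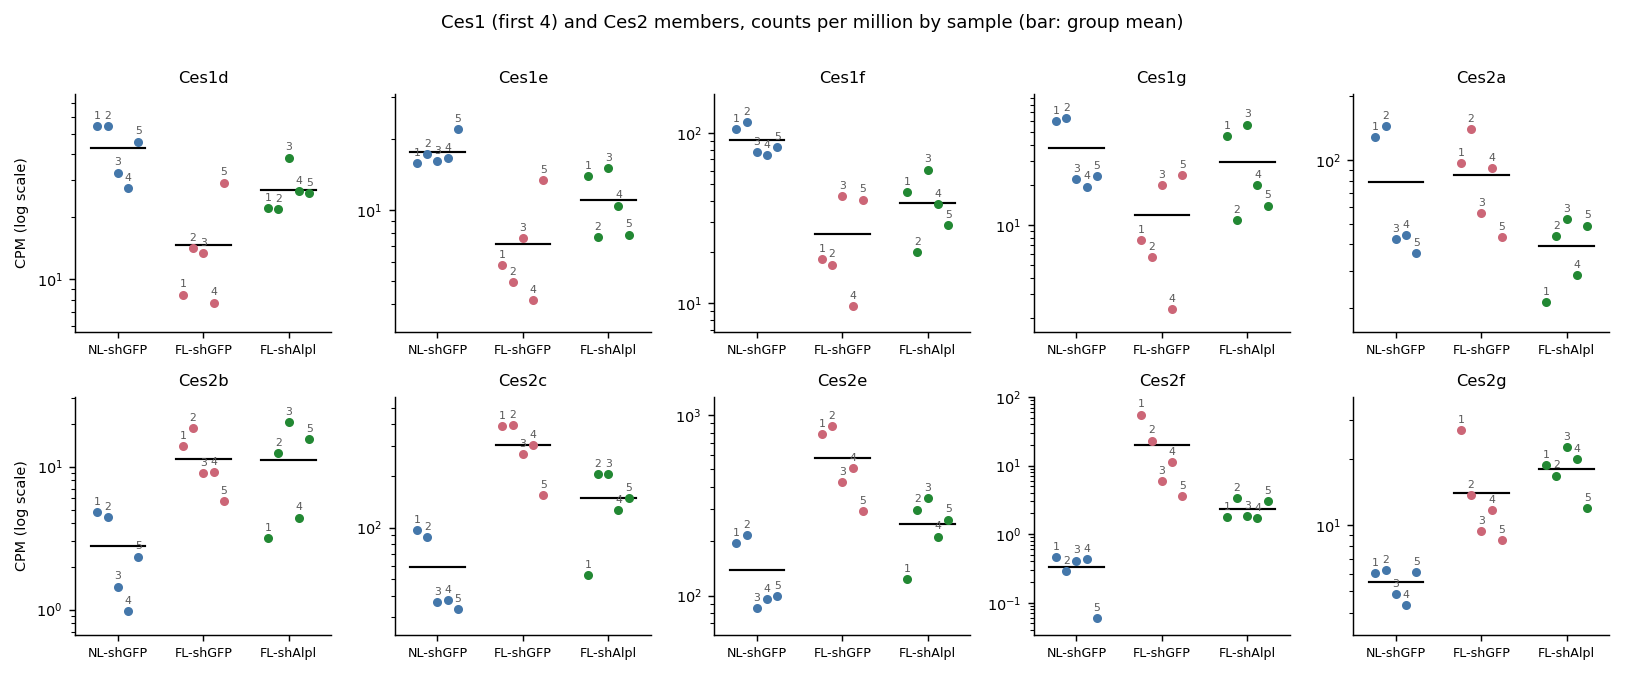
CPM on a log scale (vertical axis) of the 4 Ces1 and 6 Ces2 members in every sample (points, numbered by replicate) of the 3 groups, with a bar at the group mean. The FL-shGFP mean is the lowest of the 3 in each Ces1 panel and the highest in the Ces2a, Ces2b, Ces2c, Ces2e and Ces2f panels.

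The glutathione transferases, which couple glutathione to reactive compounds, had 7 of 20 members lower and 3 higher in FL-shGFP against NL-shGFP, and 11 higher and 1 lower in FL-shAlpl against FL-shGFP. In FL-shAlpl against NL-shGFP 6 were higher and none lower. In the mu class (Gstm), encoded on chromosome 3, 4 of 7 members (57.1%) fell in FL-shGFP and none rose. In FL-shAlpl against FL-shGFP 4 (57.1%) rose. Gstm3 stood at 32.1, 33.1, 22.2, 22.9 and 27.7 CPM in NL-shGFP samples, 3.68, 3.95, 6.23, 2.4 and 10.7 in FL-shGFP samples and 23.1, 10.1, 26.2, 22.6 and 8.15 in FL-shAlpl samples. FL-shGFP was below NL-shGFP in every sample, 5.44-fold (log2 fold change -2.44, SE 0.34, adjusted p = 9.96e-05), and FL-shAlpl rose 3.17-fold from there (log2 fold change 1.66, SE 0.34, adjusted p = 0.00227), with replicates 2 and 5 still within the FL-shGFP range. Gstm2 was tighter, at 51.9, 60.9, 50.1, 50.7 and 58.1 CPM in NL-shGFP samples, 28.9, 24.8, 25.1, 21.8 and 37.3 in FL-shGFP samples and 59.8, 48.1, 64, 60.8 and 44 in FL-shAlpl samples. Its FL-shGFP samples lay below those of both other groups, 2.05-fold below NL-shGFP (log2 fold change -1.04, SE 0.10, adjusted p = 8.46e-06), and FL-shAlpl was 1.89-fold above FL-shGFP (log2 fold change 0.92, SE 0.10, adjusted p = 5.35e-05). Gstm6 did the same at 2.09-fold (log2 fold change -1.06, SE 0.18, adjusted p = 0.000358) and 2.19-fold (log2 fold change 1.13, SE 0.18, adjusted p = 0.000514).

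Gstm1, the most abundant of the class, stood at 127, 136, 136, 136 and 169 CPM in NL-shGFP samples, 54.4, 45.3, 65.7, 26.9 and 137 in FL-shGFP samples and 161, 69.7, 137, 194 and 60.4 in FL-shAlpl samples. It was 2.28-fold lower in FL-shGFP (log2 fold change -1.19, SE 0.33, adjusted p = 0.00958), with replicate 5 inside the NL-shGFP range. In FL-shAlpl its samples formed 2 sets, replicates 1, 3 and 4 at 137 to 194 CPM and replicates 2 and 5 at 60.4 to 69.7 CPM, and the difference from FL-shGFP did not pass (log2 fold change 0.85, SE 0.33, adjusted p = 0.0564). Gstm7 passed only with FL-shAlpl, 2.03-fold above FL-shGFP (log2 fold change 1.02, SE 0.20, adjusted p = 0.00163). Its call against NL-shGFP (log2 fold change 0.59, SE 0.20, adjusted p = 0.0477) was lost without any 1 of 11 samples (adjusted p up to 0.112). Gstm4 and Gstm5 passed in no comparison.

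Among the alpha class, Gsta1 had the same 3 calls as the Cyp2d genes. It was at 2.57, 2.88, 2.74, 2.84 and 4.15 CPM in NL-shGFP samples, 22.3, 16.6, 15.4, 28.1 and 16 in FL-shGFP samples and 8.62, 5.92, 10.1, 12.8 and 5.21 in FL-shAlpl samples, 3 groups without overlap. It was 6.41-fold higher in FL-shGFP than in NL-shGFP (log2 fold change 2.68, SE 0.25, adjusted p = 5.76e-06) and 2.53-fold lower in FL-shAlpl than in FL-shGFP (log2 fold change -1.34, SE 0.24, adjusted p = 0.00102). In GENCODE M21, 90.5% of its 50-base stretches also occurred in another gene, mainly Gm3776, so these counts may belong to either. Gsta4, which detoxifies the lipid peroxidation product 4-hydroxynonenal, had 28.5, 34.2, 26, 30.5 and 36.2 CPM in NL-shGFP samples, 29.3, 22.5, 33.1, 18.6 and 42.8 in FL-shGFP samples and 61, 56.6, 83, 62.7 and 53.8 in FL-shAlpl samples. It did not pass between the shGFP groups (log2 fold change -0.15, SE 0.14, adjusted p = 0.39) and was higher in every FL-shAlpl sample, 2.06-fold above FL-shGFP (log2 fold change 1.05, SE 0.14, adjusted p = 0.000186). Gsta3 passed in none, with values from 1.55 to 18.1 CPM within FL-shGFP and 3.71 to 33.5 within FL-shAlpl.

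Gsto1, which reduces dehydroascorbate and methylated arsenic, rose at each step with little spread. Its values were 202, 218, 191, 197 and 224 CPM in NL-shGFP samples, 342, 358, 294, 349 and 311 in FL-shGFP samples and 393, 481, 468, 455 and 387 in FL-shAlpl samples, 3 ranges without overlap. The fold was 1.56 from NL-shGFP to FL-shGFP (log2 fold change 0.64, SE 0.11, adjusted p = 0.000467) and 1.24 from FL-shGFP to FL-shAlpl (log2 fold change 0.31, SE 0.11, adjusted p = 0.0462), the second being lost on leaving out any 1 sample other than FL-shGFP replicates 2 and 4 and FL-shAlpl replicate 1 (adjusted p up to 0.207). Of the pi class, Gstp1 was 1.42-fold higher in FL-shAlpl than in FL-shGFP (log2 fold change 0.51, SE 0.19, adjusted p = 0.0462), lost on leaving out any 1 sample other than FL-shGFP replicates 3 and 5 and FL-shAlpl replicates 1 and 2 (adjusted p up to 0.138), and Gstp3 was 2.44-fold higher in FL-shGFP than in NL-shGFP (log2 fold change 1.29, SE 0.15, adjusted p = 2.34e-05) with separate samples. Gstp1 and Gstp2 shared 33.7% and 54.3% of their 50-base stretches with other genes. Gstz1, which isomerises maleylacetoacetate in tyrosine breakdown, fell 1.87-fold in FL-shGFP (log2 fold change -0.9, SE 0.15, adjusted p = 0.00025) and rose 1.53-fold in FL-shAlpl from there (log2 fold change 0.61, SE 0.15, adjusted p = 0.00571). Gstcd and Gstt2 were also lower in FL-shGFP (log2 fold change -0.78, SE 0.30, adjusted p = 0.0404, and log2 fold change -0.48, SE 0.19, adjusted p = 0.0461), and both calls were lost on leaving out any 1 of NL-shGFP replicates 2 to 5 and FL-shGFP replicates 1, 2 and 4, that of Gstcd also without NL-shGFP replicate 1 and that of Gstt2 also without FL-shAlpl replicate 3 or 5 (adjusted p up to 0.114). Gstt1 was 1.93-fold higher in FL-shAlpl relative to NL-shGFP (log2 fold change 0.95, SE 0.23, adjusted p = 0.011). Against FL-shGFP it was also higher (log2 fold change 0.66, adjusted p = 0.0363), a call lost without any 1 of 8 samples (adjusted p up to 0.0887). Gstk1 and Gstt3 passed in no comparison.

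The 5 sulfotransferases divided gene by gene. Sult1a1, which sulfates phenols, stood at 276, 307, 195, 208 and 257 CPM in NL-shGFP samples, 76.8, 71.3, 139.5, 45.4 and 161 in FL-shGFP samples and 92.2, 159, 247, 112 and 222 in FL-shAlpl samples. FL-shGFP was lower than NL-shGFP in every sample, 2.67-fold (log2 fold change -1.42, SE 0.31, adjusted p = 0.00215), and FL-shAlpl overlapped both. Sult1b1, which sulfates thyroid hormones and phenols, did the opposite at 88, 90.4, 50.9, 56.2 and 51.3 CPM in NL-shGFP samples, 253, 267, 162, 254 and 133 in FL-shGFP samples and 104, 243, 203, 99.4 and 188 in FL-shAlpl samples. It was 3.13-fold higher in FL-shGFP (log2 fold change 1.65, SE 0.32, adjusted p = 0.000954) and 2.29-fold higher in FL-shAlpl relative to NL-shGFP (log2 fold change 1.2, SE 0.32, adjusted p = 0.0173), the latter lost without FL-shAlpl replicate 2 (adjusted p = 0.0676).

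Sult2b1, the cholesterol sulfotransferase, was at 7.09, 7.67, 4.84, 5.31 and 4.12 CPM in NL-shGFP samples, 17.7, 16.3, 20.5, 25.8 and 16.1 in FL-shGFP samples and 9.63, 13.3, 13.6, 8.35 and 10.5 in FL-shAlpl samples. The 3 groups did not overlap, with a 3.23-fold rise (log2 fold change 1.69, SE 0.22, adjusted p = 5.6e-05) and then a 1.86-fold fall (log2 fold change -0.89, SE 0.22, adjusted p = 0.00628). FL-shAlpl stayed above NL-shGFP (log2 fold change 0.80, adjusted p = 0.0208). That call was lost without NL-shGFP replicate 3 or FL-shAlpl replicate 2 (adjusted p up to 0.082). Sult1c2 had 29.8, 28, 21.7, 23 and 32.5 CPM in NL-shGFP samples, 18.2, 20.8, 20.1, 11.2 and 24.8 in FL-shGFP samples and 32.1, 56.9, 80.1, 24.8 and 55.4 in FL-shAlpl samples and was 2.51-fold higher in FL-shAlpl than in FL-shGFP (log2 fold change 1.33, SE 0.26, adjusted p = 0.00187). Its FL-shAlpl replicates 2, 3 and 5 were above all other samples. Sult1d1, which sulfates catecholamines and is encoded beside Sult1b1 on chromosome 5, did not pass in any comparison (log2 fold change 0.56, SE 0.30, adjusted p = 0.136 for FL-shGFP against NL-shGFP), and its FL-shAlpl values ran from 47.1 to 155 CPM.

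Among the glucuronosyltransferases, Ugt1a1, the bilirubin-conjugating enzyme, stood at 7.95, 5.85, 5.4, 4.73 and 5.23 CPM in NL-shGFP samples, 12.9, 11.6, 35.6, 20.1 and 20.7 in FL-shGFP samples and 3.56, 4.33, 9.72, 4.71 and 6.61 in FL-shAlpl samples. FL-shGFP was above both other groups without overlap, 3.3-fold above NL-shGFP (log2 fold change 1.72, SE 0.30, adjusted p = 0.000453), and FL-shAlpl was 3.67-fold below it (log2 fold change -1.88, SE 0.30, adjusted p = 0.000545). The Ugt1a genes share their last exons, and 58.2% of the 50-base stretches of Ugt1a1 occurred in another gene. Ugt1a7c and Ugt1a6a, from the same locus, did not pass in any comparison (log2 fold change -0.17, SE 0.13, adjusted p = 0.319, and log2 fold change 0.18, SE 0.38, adjusted p = 0.712, for FL-shGFP against NL-shGFP).

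Ugt2b34, the most abundant Ugt gene, ranged over 319, 297, 249.8, 251 and 304 CPM in NL-shGFP samples, 337, 369.7, 318, 360.4 and 308 in FL-shGFP samples and 309, 407, 542, 265 and 399 in FL-shAlpl samples, and passed in none of the comparisons (log2 fold change 0.22, SE 0.17, adjusted p = 0.296 for FL-shGFP against NL-shGFP). Its neighbours Ugt2b5 and Ugt2b35 fell in FL-shGFP, by 2.69-fold (log2 fold change -1.42, SE 0.33, adjusted p = 0.0033) and 1.88-fold (log2 fold change -0.91, SE 0.25, adjusted p = 0.00837). In FL-shAlpl they parted: Ugt2b35 was 2.1-fold higher than in FL-shGFP (log2 fold change 1.07, SE 0.25, adjusted p = 0.00524), and Ugt2b5 was not shown to differ from FL-shGFP (log2 fold change 0.11, SE 0.33, adjusted p = 0.817) and was lower than in NL-shGFP (log2 fold change -1.31, SE 0.33, adjusted p = 0.0141). The values of Ugt2b5 were 35.1, 36.7, 26.5, 27.4 and 28 CPM in NL-shGFP samples, 10.2, 6.89, 16.1, 6.59 and 21.2 in FL-shGFP samples and 18.2, 7.03, 26.1, 8.46 and 9.77 in FL-shAlpl samples. Its call against NL-shGFP was lost without NL-shGFP replicates 1 and 2 together (adjusted p = 0.0836), its 2 highest samples there, left out after seeing the data.

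Ugt8a makes galactosylceramide, a lipid of myelin and of the gut epithelium, rather than conjugates of foreign compounds. It was scarce, at 2.6, 2.95, 0.531, 0.752 and 1.38 CPM in NL-shGFP samples, 2.43, 2.9, 9.78, 2.83 and 5.95 in FL-shGFP samples and 0.339, 0.614, 0.884, 0.158 and 0.761 in FL-shAlpl samples, from 18 to 122, 106 to 465 and 7 to 41 counts per library. FL-shAlpl lay below FL-shGFP in every sample, 8.87-fold (log2 fold change -3.15, SE 0.56, adjusted p = 0.000996). The higher level in FL-shGFP than in NL-shGFP (log2 fold change 1.46, SE 0.52, adjusted p = 0.0308) was lost without any 1 of NL-shGFP replicates 3, 4 and 5 and FL-shGFP replicate 3 (adjusted p up to 0.103). The lower level in FL-shAlpl than in NL-shGFP (log2 fold change -1.69, SE 0.54, adjusted p = 0.043) was lost without any 1 of NL-shGFP replicates 1, 2 and 5 and FL-shAlpl replicates 1, 2, 4 and 5 (adjusted p up to 0.117).

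Genes that serve these enzymes were counted from 6 lists of 96 genes, 92 of them tested. In FL-shGFP against NL-shGFP 33 were higher and 16 lower (35.9% and 17.4%, beside 25.1% and 21.6% of all genes tested). In FL-shAlpl against FL-shGFP 14 were higher and 16 lower (15.2% and 17.4%), near the 18.0% and 17.9% of all genes. In FL-shAlpl against NL-shGFP 21 were higher and 4 lower (22.8% and 4.35%, beside 9.31% and 8.13%). Of 15 ligand sensors and partners tested, 7 were higher and 2 lower in FL-shGFP (46.7% and 13.3%, beside the 25.1% and 21.6% of all genes). PXR (Nr1i2), which switches on Cyp3a and Cyp2c genes in liver, averaged 47.4 ± 8.29 CPM in NL-shGFP samples, 98.9 ± 15.7 in FL-shGFP and 75.2 ± 12.9 in FL-shAlpl (SD, n = 5). It was higher in FL-shGFP than in NL-shGFP (log2 fold change 1.02, SE 0.15, adjusted p = 0.00012) and lower in FL-shAlpl than in FL-shGFP (-0.47, SE 0.15, adjusted p = 0.0225). CAR (Nr1i3) was scarce, at 0.0485 to 0.210 CPM in NL-shGFP samples and 0.501 to 2.61 in FL-shGFP, and higher there (3.77, SE 0.59, adjusted p = 0.000191). The bile acid receptor Nr1h4 rose (1.15, SE 0.12, adjusted p = 1.29e-05) and in FL-shAlpl fell again (-0.99, SE 0.12, adjusted p = 9.59e-05). Hnf4a did not pass (0.02, SE 0.13, adjusted p = 0.901 for FL-shGFP against NL-shGFP), nor did Ahr, which is named after its values were seen (0.24, SE 0.12, adjusted p = 0.115).

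Por, the reductase that hands electrons to the microsomal P450s, followed the P450 majority. It was at 66.8 to 79.9 CPM in NL-shGFP samples, 108 to 188 in FL-shGFP and 57.9 to 83.9 in FL-shAlpl, higher in FL-shGFP than in NL-shGFP (0.87, SE 0.14, adjusted p = 0.000189) and lower in FL-shAlpl than in FL-shGFP (-0.95, SE 0.14, adjusted p = 0.000231). Among the 12 electron and cofactor genes 2 were higher and 4 lower in FL-shGFP (16.7% and 33.3%, beside 25.1% and 21.6% of all genes). Of the 16 genes of the NRF2 axis 4 were higher and 2 lower in FL-shGFP (25.0% and 12.5%), no larger shares than the 25.1% and 21.6% of all genes. Srxn1 (1.32, SE 0.17, adjusted p = 4.4e-05), Gclc (0.81, SE 0.13, adjusted p = 0.000231) and Hmox1 (1.34, SE 0.26, adjusted p = 0.000892) rose, while Nfe2l2 itself, named after its values were seen, was lower (-0.30, SE 0.11, adjusted p = 0.0401).

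Of 25 other phase I enzymes 11 were higher and 3 lower in FL-shGFP than in NL-shGFP, and 10 higher and none lower in FL-shAlpl than in NL-shGFP. The flavin monooxygenase Fmo2 went from 0.146 to 0.515 CPM in NL-shGFP samples to 4.20 to 31.8 in FL-shGFP and 0.927 to 2.19 in FL-shAlpl, a rise of 5.43 on the log2 scale (SE 0.72, adjusted p = 6.87e-05) and a fall from there (-2.95, SE 0.61, adjusted p = 0.00263). The alcohol dehydrogenase Adh1 was higher in both fatty liver groups than in NL-shGFP (1.86, SE 0.32, adjusted p = 0.00047 in FL-shGFP, and 2.58, SE 0.33, adjusted p = 0.00021 in FL-shAlpl). Of 14 transporters 7 were higher and 2 lower in FL-shGFP, and 1 higher and 5 lower in FL-shAlpl against FL-shGFP. The drug efflux pump Abcb1b rose in FL-shGFP (2.61, SE 0.40, adjusted p = 0.000152) and fell in FL-shAlpl (-2.43, SE 0.39, adjusted p = 0.000486), and the carnitine carrier Slc22a5 did likewise (1.34, SE 0.19, adjusted p = 9.31e-05, and -1.31, SE 0.19, adjusted p = 0.000263). Of 10 other phase II enzymes tested 2 were higher and 3 lower in FL-shGFP.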

How the data were processed

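Gene counts of the 15 colonic crypt RNA-seq libraries were deposited by the authors as whole, unnormalized counts beside FPKM values (fragments per kilobase of gene, scaled to the library total). HISAT2 is named in the submitters' processing notes without a version. What counted the reads, on which build and annotation, and whether by strand, is not given in the sources used here. Per the labels, mRNA was enriched from column-purified RNA. FPKM as deposited were the same counts divided by gene length and library total (relative spread at most 1.4e-06), and of counts from 1 to 12 between 72.4% and 77.2% were even, and the reason was not tested.

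CPM were computed here from the counts. Genes were tested with edgeR 4.0.16 (R 4.3.3; TMM factors, filterByExpr by group, robust quasi-likelihood fit over the 3 groups, 12 residual degrees of freedom), and p-values were Benjamini-Hochberg adjusted over 17404 genes, with 15535 untested. The biological coefficient of variation was 30.2%. Fold changes come from this fit, and standard errors are the log2 fold change over the root of F. Tested on simulated counts of 17404 genes, the fit recovered, of 100 genes each, 47 at 2-fold and 91 at 4-fold change for FL-shGFP against NL-shGFP, 53 and 81 for FL-shAlpl against FL-shGFP, and 47 and 79 for FL-shAlpl against NL-shGFP. Alternatives used other scaling, filters and group sets, a replicate block, each sample left out, like libraries summed, DESeq2 1.42.0 and limma 3.58.1 (voom, and log2(FPKM + 1)).

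Per family, values in every sample are given for the 3 members with the highest mean CPM and for up to 4 members higher and 4 lower with the largest fold changes in each comparison, and further members appear with fold changes or in counts. Of the pathway lists, up to 4 genes with the smallest p per list and comparison and up to 2 abundant genes that did not pass could be named. Promoter windows were aligned end to end with gaps in Biopython. The members and lists were chosen with earlier results of these data known. NL-shGFP replicates 3 and 4 were the closest pair of libraries but differed by more than sampling noise for highly counted genes (median chi-square 3.16).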

Additional observations from a re-analysis of the deposited data

Results flagged for a closer look

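Of 150 sets of 5 samples checked among the named members and family sums, 9 held 1 sample far from the other 4 (Dixon's ratio above 0.71), where chance alone flags about 1 in 20, or 7.5 sets. Among them 5 were NL-shGFP replicate 5, the highest of its group: Ces1e at 22.0 CPM (others 15.7 to 17.2), Cyp2c68 at 6.40 (1.40 to 2.71), Gsta1 at 4.15 (2.57 to 2.88), Gstm1 at 169 (127 to 137) and Ugt2b35 at 28.2 (18.8 to 21.2). FL-shGFP replicate 2 was highest for Cyp2c69 at 1.51 CPM (others 0.0623 to 0.373) and for Cyp2f2 at 3.99 (0.589 to 1.38). In the same group Ces2g reached 27.0 CPM in replicate 1 (others 8.55 to 13.7), and the summed Sult members 624 CPM in replicate 3 (490 to 528).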

How the results depend on the processing

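No member's call reversed under any alternative. Over all alternatives 38 of 43 calls held for FL-shGFP against NL-shGFP, 20 of 40 for FL-shAlpl against FL-shGFP and 11 of 29 for FL-shAlpl against NL-shGFP. With each sample left out in turn, members called ranged from 27 to 29 higher and 13 to 19 lower in the first comparison, 11 to 21 higher and 13 to 22 lower in the second, and 16 to 25 higher and 4 to 9 lower in the third, and genes of the pathway lists from 29 to 35 and 12 to 16, 9 to 17 and 13 to 19, and 14 to 23 and 3 to 5. For FL-shGFP against NL-shGFP, pathway genes lower went from 16 to 7 with library totals alone, 8 with limma on log2(FPKM + 1), and 10 both without NL-shGFP replicates 1 and 2 (an alternative chosen after seeing the data) and with the like NL-shGFP libraries summed. For FL-shAlpl against FL-shGFP, members lower went from 23 to 10 with no filter, and pathway genes higher from 14 to 9 with only the 2 groups compared. For FL-shAlpl against NL-shGFP, members lower went from 7 to 4 with library totals alone, with no filter or with limma on log2(FPKM + 1), to 2 with like libraries summed and to 0 (edgeR, 5 at an unadjusted p below 0.05, where DESeq2 on all samples gave 9) without NL-shGFP replicates 1 and 2, and with like libraries summed members higher went from 22 to 13 and pathway genes higher from 21 to 13. The cause of these moves was not tested. Over all genes, library totals alone gave 4521 higher and 2351 lower in the first comparison (4376 and 3752 with TMM) and 2780 and 930 in the third (1621 and 1415 with TMM). With mitochondrial genes left out of the totals, mean summed CPM rose in Ces to 705 (NL-shGFP), in Cyp to 1670 (NL-shGFP) and 2071 (FL-shGFP), in Gst to 1293, 1016 and 1541 (NL-shGFP, FL-shGFP and FL-shAlpl), in Sult to 702 and 647 and in Ugt to 652 and 570 (NL-shGFP and FL-shGFP). Replicate numbers were not taken to pair the samples, since deviations of same-numbered samples correlated from -0.35 to 0.33. As a hint from the data, 13 of 30 were highest with the sample's own number, where 6 would be if numbers carried nothing. With the replicate block, members higher and lower were 27 and 15, 13 and 16, and 22 and 6 in the 3 comparisons. Low counts limit the precision of members such as Cyp2c69 and Cyp2f2.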
